A study of Mus musculus with 32 samples.

Results

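Glutamate receptors and the scaffold proteins that hold them at the synapse are described here through 34 genes of the 53715 in the count tables. The genes were taken as a list of symbols. They comprise 4 AMPA receptor subunits (Gria1 to Gria4), 7 NMDA receptor subunits (Grin1, Grin2a to Grin2d, Grin3a and Grin3b), 5 kainate receptor subunits (Grik1 to Grik5), 1 delta receptor subunit (Grid1) and 6 metabotropic receptors (Grm2, Grm3, Grm4, Grm5, Grm7 and Grm8). The other 11 encode scaffolds of the postsynaptic density, namely 4 of the DLG family, 4 of the DLGAP family and 3 of the SHANK family. All 34 were found by their GENCODE M21 symbols, and each received an adjusted p-value in every comparison.

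RNA was sequenced from the amygdala and hippocampus of 16 adult male mice, 4 in each of 4 genotypes. The mice were F1 hybrids (129xB6) from 129S1/SvImJ fathers heterozygous for Kmt2a and C57BL/6J mothers heterozygous for Kdm5c. The genotypes were wildtype (WT), Kmt2a heterozygote (2a-HET, Kmt2a+/-), Kdm5c hemizygous knock-out (5c-KO, Kdm5c-/y) and the double mutant (DM, Kmt2a+/-, Kdm5c-/y). Kmt2a encodes a writer and Kdm5c an eraser of methylation at lysine 4 of histone H3, and the study asked how the loss of each, and of both together, alters the brain. The Kmt2a allele was derived from a floxed line by a Cre under the ubiquitous ROSA26 locus and passed through the germline, so neither mutation is limited to a cell type. Each library mixes the neurons and glia of one microdissected region of one mouse, and mouse ages varied within the adult range.

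Most fast excitatory transmission in the brain runs through glutamate. AMPA receptors carry the rapid current and NMDA receptors admit calcium when glutamate and depolarisation coincide, which makes them triggers of synaptic plasticity in hippocampus and amygdala. Kainate receptors act on both sides of the synapse, and metabotropic receptors signal through G proteins, group I (Grm5) mainly after the synapse and groups II and III (Grm2, Grm3, Grm4, Grm7, Grm8) mainly before it. In the postsynaptic density, DLG proteins bind the receptor tails, DLGAP proteins bind DLG, and SHANK proteins link DLGAP to the actin skeleton.

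Amygdala libraries held from 19215489 to 26033593 gene counts and hippocampal libraries from 19322259 to 27798976. The 34 genes took 0.683% to 0.865% of the amygdala counts and 0.817% to 1.29% of the hippocampal ones, and a count of 3, the limit that a count of 0 allows, corresponded to 0.108 to 0.156 CPM. Values below are normalised read counts, that is counts divided by a size factor per library. Kdm5c stood at 1570 ± 324 (SD, n = 4) in WT amygdala, 1259 ± 94.3 in 5c-KO and 1239 ± 55.4 in DM, and at 1640 ± 222, 1296 ± 93.1 and 1423 ± 49.7 in hippocampus. Kmt2a stood at 4076 ± 1459 in WT and 4107 ± 476 in 2a-HET amygdala and at 4468 ± 1254 and 5172 ± 1435 in hippocampus. Counts over a whole gene do not isolate the deleted exons, so these values check the labels weakly. The dissected regions differed in their markers, and the following sums do not overlap between the 16 libraries of each. Summed counts of 6 excitatory neuron markers were 60902 to 124772 in amygdala and 138323 to 252471 in hippocampus, those of 6 inhibitory markers 21508 to 32839 and 9184 to 16787, those of 8 hippocampal neuron markers 7089 to 10243 and 14062 to 42668, and no marker was at 0. Striatal neuron markers varied widely, from 9070 to 59886 in amygdala and from 2594 to 17022 in hippocampus, and thalamic ones from 2264 to 10973 and from 1542 to 4786. Sums of 6 general neuron markers overlapped between regions, at 56906 to 68016 in amygdala (median 61486) and 67161 to 93155 in hippocampus (median 81176). A few libraries stood apart in their neuronal markers. WT replicate 1 amygdala had the highest excitatory sum (124772, against 69171 to 96964 in the others of WT), and 5c-KO replicate 1 hippocampus had the lowest one of its region (138323) and the highest striatal sum (17022). 2a-HET replicate 4 hippocampus had the highest sum of hippocampal neuron markers (42668, against 23680 to 24879 in the others of 2a-HET) with a low inhibitory sum (9809, against 13077 to 15206), and the highest Gria1, Gria2, Grin2a and Grin2b counts of its region. Choroid plexus markers were uneven beyond these libraries. Their sum was highest in 5c-KO replicate 1 hippocampus (103648), reached 25630 to 27337 in the hippocampus of WT replicate 3, 5c-KO replicate 4 and DM replicates 2 and 4, and in amygdala stood at 40646 in DM replicate 1 against 787 to 7533 in the others.

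Per kilobase of transcript, scaffolds and the obligate NMDA subunit stood at the top of the group in both regions. Dlg4, the most abundant DLG scaffold, had the highest median level of the 34, at 777 TPM (a share of all transcripts scaled by length, computed from the transcript counts) in amygdala and 974 in hippocampus. Dlgap3 (411 and 472 TPM), Grin1 (358 and 493) and Shank1 (300.4 and 549) took the next places in both regions, in differing order. Among the other ionotropic subunits, Grik5, a kainate subunit that needs a partner to form a channel, took place 5 in amygdala (232 TPM) and place 8 in hippocampus (282). The lowest 3 places in amygdala were Grik1 (11.3 TPM), Grm8 (8.16) and Grin3b (0.542), and they were also the lowest in hippocampus (5.91, 3.49 and 0.241). The order moved most for Grin2a, from place 30 in amygdala (16.2 TPM) to place 16 in hippocampus (72.1), and the largest moves down were those of Gria4, from place 17 (47.7) to place 27 (24.8), and Grm4, from place 21 (33.5) to place 31 (10.5).

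The regions of WT mice differed in most of these genes. Of the 34, 16 were higher in hippocampus and 9 were higher in amygdala at an adjusted p under 0.1 (DESeq2, Wald test), 25 in all, whereas 21.6% of all 20855 genes tested passed (10.1% higher in hippocampus and 11.5% in amygdala). The median log2 fold change was 0.23 over the 34 and -0.02 over all genes tested. Values of the 4 WT mice did not overlap between regions for 16 of the 34, against 16.1% of all genes. Both regions came from the same mice, and with the mouse as a block 24 were called, Grin3b being lost. The scale matters for the differences towards amygdala. Scaling to the added ERCC RNA moved the median of all genes to 0.77 towards hippocampus and left 13 members called (8.42% of all genes). It turned the sign of Gria4, Grin3a, Grik1, Grik3, Grm8 and Dlg1. Of the 9 called higher in amygdala 3 kept their sign, and of the 16 called higher in hippocampus all 16 did. After subtraction of that median all 25 kept their sign. That step brings the values back near the size-factor scale, so it cannot decide between the scales. Fewer cells of a type and less RNA per cell cannot be told apart in these bulk samples, and the part of the region's cell makeup in the differences was not tested.

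**Figure D1:**
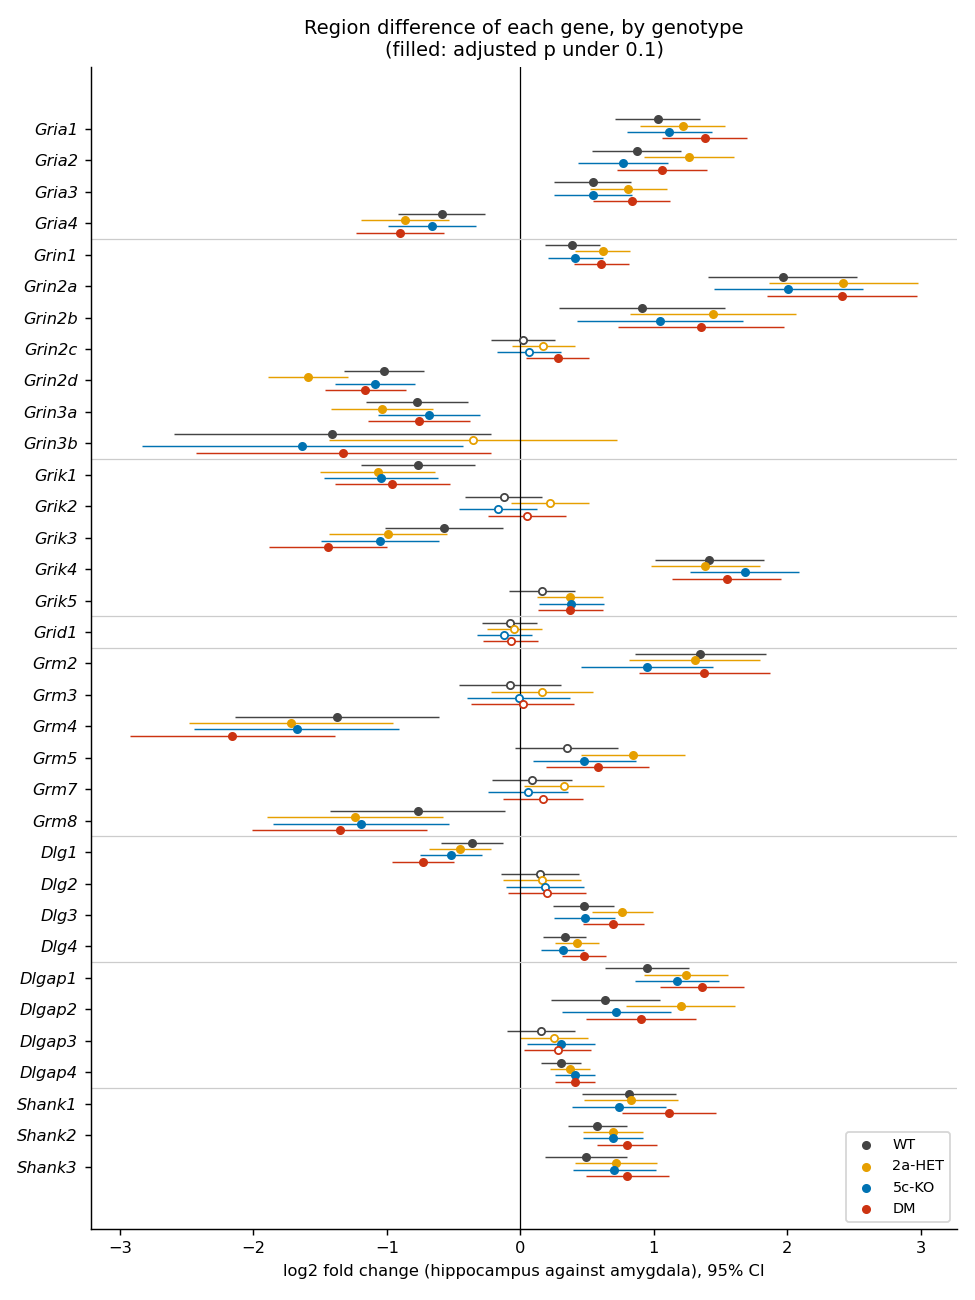
Log2 fold change between regions (hippocampus against amygdala, x axis) with its 95% confidence interval for each of the 34 genes (y axis, grouped by family) in WT, 2a-HET, 5c-KO and DM mice, 4 mice each, filled where the adjusted p is under 0.1. Grin2a, Grik4, Gria1 and Dlgap1 lie to the right and Grin2d, Grm4 and Gria4 to the left in each genotype, though with ERCC scaling Gria4 changed sign in WT and 5c-KO.

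Of the AMPA receptor subunits, 3 were higher in hippocampus, and Gria4 was higher in amygdala except on the ERCC scale. Gria1 (chromosome 11, 57011387 to 57330244, plus strand, mm10), whose subunit is delivered to synapses during potentiation, had 8130, 9546, 9286 and 11294 normalised counts in the amygdala of WT replicates 1 to 4 and 20482, 24174, 19868 and 13556 in their hippocampus. Every hippocampal value lay above every amygdala value, a log2 fold change of 1.03 ± 0.163 (SE, 95% CI 0.71 to 1.35, adjusted p = 1.18e-08). Gria2, the subunit that makes the channel impermeable to calcium once its RNA is edited, went from 5739, 6376, 6720.4 and 7946 to 11530.0, 15647, 12129 and 9673 (0.87 ± 0.171, adjusted p = 7.52e-06), again without overlap. Gria3, on the X chromosome, averaged 3989 in hippocampus and 2743 in amygdala (0.54 ± 0.149, adjusted p = 0.00277). Gria4, prominent in interneurons and thalamus, went the other way, from 1201, 1793, 1886 and 1705 in amygdala to 837, 1203, 922 and 1413 in hippocampus (-0.59 ± 0.167, adjusted p = 0.004), with overlapping values and with the opposite sign on the ERCC scale.

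The NMDA receptor genes showed the strongest contrast within a family. Grin2a (ENSMUSG00000059003, chromosome 16, 9567898 to 9995560, minus strand), the subunit that comes to dominate mature forebrain synapses, had 1601, 1768, 2557 and 2999.9 counts in WT amygdala and 6635, 14005, 7731 and 6487 in hippocampus. The mean was 3.91-fold higher in hippocampus (log2 1.97 ± 0.285, 95% CI 1.41 to 2.52, adjusted p = 3.2e-10), and the highest amygdala value was under the lowest hippocampal one. Grin2b, the subunit typical of young and extrasynaptic receptors, had 4100.4, 7003, 7409 and 9419 counts in amygdala and 8444, 19992, 11921 and 12209 in hippocampus (0.91 ± 0.317, adjusted p = 0.0260), with overlap. Grin1, the subunit every NMDA receptor contains, averaged 19138 against 14603 (0.39, adjusted p = 0.0021).

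Grin2d, Grin3a and Grin3b were higher in amygdala, Grin3a not on the ERCC scale. Grin2d (chromosome 7, 45831883 to 45878378, minus strand), a subunit found mainly in interneurons and in diencephalon, had 1157, 2349, 1798 and 1649.7 counts in amygdala and 904, 774, 746 and 995 in hippocampus (-1.02 ± 0.154, adjusted p = 1.42e-09). All 4 amygdala values exceeded all 4 hippocampal ones. Grin3a (chromosome 4, 49661611 to 49845744, minus strand), which lowers calcium entry through the receptor, had 1270.3, 1738, 1703 and 1949 against 709, 1311, 827 and 1047 (-0.77 ± 0.196, adjusted p = 0.000906). Its values overlapped, and its sign turned on the ERCC scale. Grin3b was near the floor of detection, at a mean of 14.3 counts against 5.32 (-1.41 ± 0.606, adjusted p = 0.0942, and -0.62 with ERCC scaling). Grin2c did not pass the test (0.02, adjusted p = 0.947).

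Kainate receptor subunits split as well, with Grik4 higher in hippocampus, Grik1 and Grik3 higher in amygdala but not on the ERCC scale, and Grik2 and Grik5 not called. Grik4 (chromosome 9, 42518135 to 42944493, minus strand), a high-affinity subunit known from mossy fibre synapses, had 291, 555, 485 and 558 counts in WT amygdala and 1469.9, 1242, 1369 and 964 in hippocampus, a 2.67-fold difference without overlap (log2 1.42 ± 0.208, adjusted p = 5.95e-10). Grik1 (chromosome 16, 87895900 to 88290265, minus strand) had 356, 466, 332 and 324 in amygdala and 138, 237, 189 and 300.2 in hippocampus (-0.77 ± 0.218, adjusted p = 0.00387). Grik3 averaged 2601 in amygdala and 1752 in hippocampus (-0.57 ± 0.225, adjusted p = 0.0601). Both Grik1 and Grik3 turned sign with ERCC scaling. Grik2 (-0.12), Grik5 (0.16) and the delta subunit Grid1 (-0.08) had adjusted p-values of 0.670, 0.457 and 0.710.

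Among metabotropic receptors, Grm2 was higher in hippocampus and the group III receptors Grm4 and Grm8 were higher in amygdala, Grm8 not on the ERCC scale. Grm2 (chromosome 9, 106643095 to 106656082, minus strand), a presynaptic receptor that lowers glutamate release, had 882, 649, 975 and 484 counts in WT amygdala and 2174, 2014, 1637 and 1785 in hippocampus (1.35 ± 0.251, adjusted p = 2.06e-06), with no overlap. Grm4 (chromosome 17, 27422387 to 27521403, minus strand) averaged 1398 in amygdala and 539 in hippocampus (-1.38 ± 0.391, adjusted p = 0.00405), and its WT amygdala values varied widely, at 455, 1230, 1850 and 2058 in replicates 1 to 4. The thalamic marker sums of these libraries were 2264, 4808, 10973 and 6684 and the striatal ones 15280, 30354, 37664 and 58727, so replicate 1 was lowest in all 3 measures. Their part in the Grm4 difference was not tested. With ERCC scaling the WT difference of Grm4 kept its sign but shrank to -0.45. Grm8 averaged 246 and 144 (-0.77 ± 0.334, adjusted p = 0.0980), near the threshold and with the opposite sign on the ERCC scale. Grm3 (-0.08), Grm5 (0.35) and Grm7 (0.09) were not called, at adjusted p-values of 0.865, 0.255 and 0.80.

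The scaffolds went mostly one way, with 8 of 11 higher in hippocampus and Dlg1 higher in amygdala, though not on the ERCC scale. Dlgap1 (chromosome 17, 69969073 to 70821413, plus strand) showed the smallest adjusted p of them, with 9472, 6923, 8678 and 6886 counts in WT amygdala and 15052, 17413, 14620.2 and 14672 in hippocampus (0.95 ± 0.161, adjusted p = 1.09e-07) and no overlap. The 3 SHANK genes, whose proteins form the deep layer of the density, were all higher in hippocampus: Shank1 averaged 39383 against 22381 (0.82 ± 0.180, adjusted p = 9.07e-05). Shank2 averaged 5683 against 3812 (0.58 ± 0.114) and Shank3 14930 against 10617 (0.49 ± 0.158). Dlg3 and Dlg4, which tether NMDA and AMPA receptors, were higher by 0.47 ± 0.116 and 0.33 ± 0.0827, Dlgap2 by 0.64 ± 0.209 and Dlgap4 by 0.31 ± 0.0770. Dlg1, a scaffold linked to receptor trafficking, averaged 2330 in hippocampus and 2993 in amygdala (-0.36 ± 0.118, adjusted p = 0.0166) and turned sign on the ERCC scale. Dlg2 (0.15) and Dlgap3 (0.16) were not called.

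**Figure D2:**
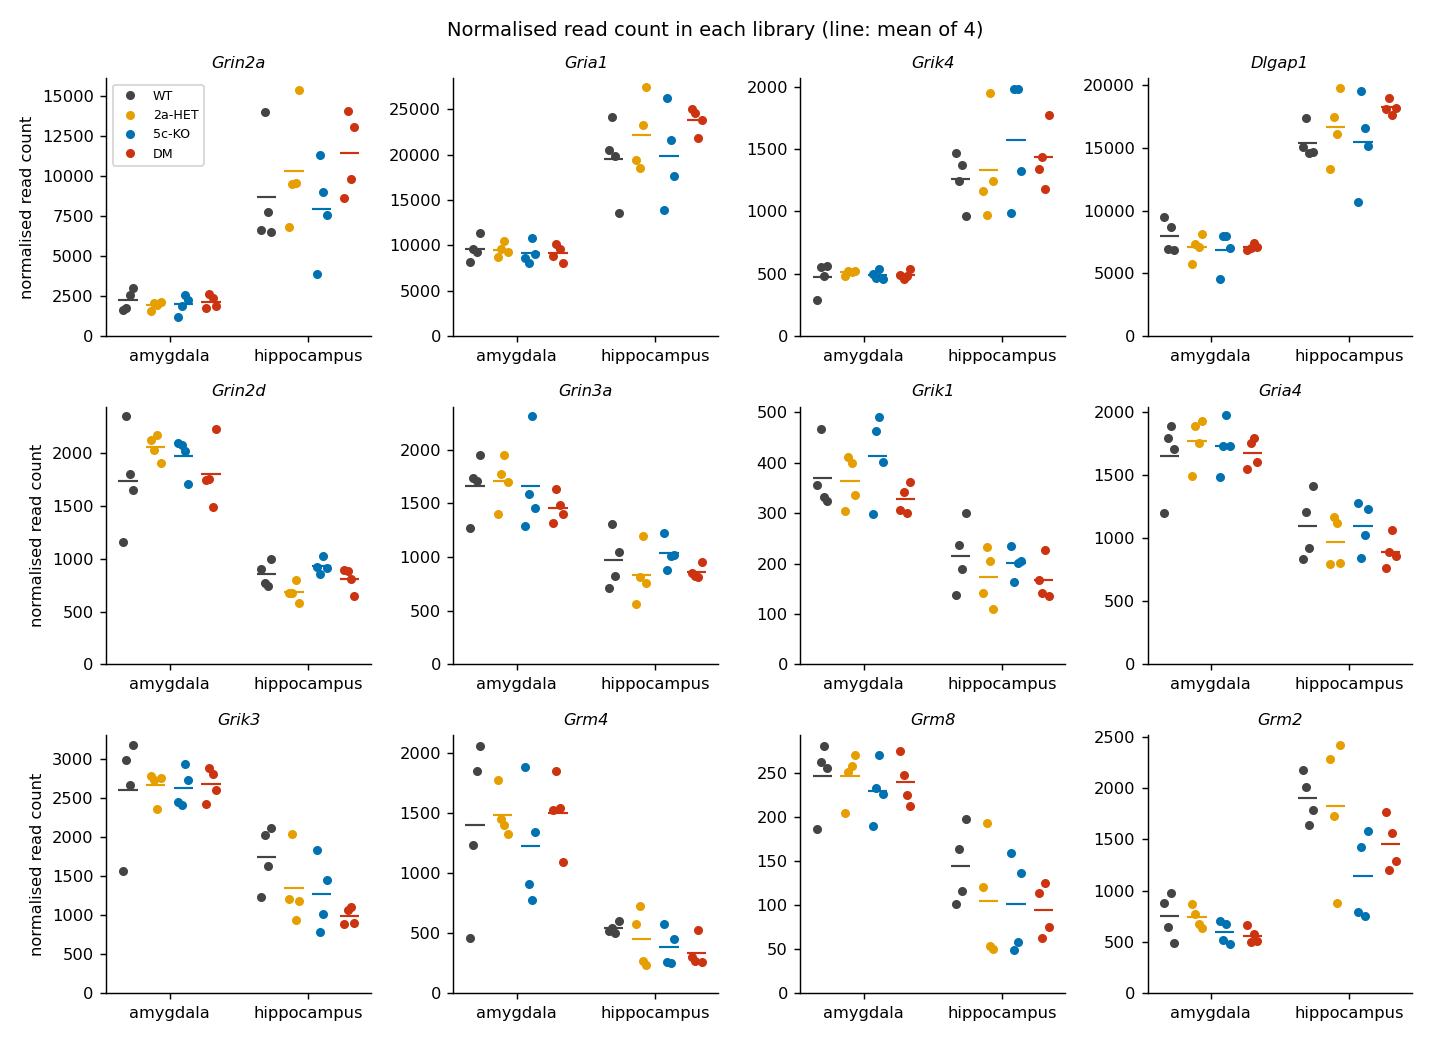
Normalised read count (y axis, linear, from 0) of 12 of the genes in each of the 32 libraries, by region and genotype (x axis), with a line at the mean of 4. In the upper row (Grin2a, Gria1, Grik4, Dlgap1) hippocampal points lie above all amygdala points, in the middle row (Grin2d, Grin3a, Grik1, Gria4) mostly below, though with ERCC scaling Grin3a, Grik1 and Gria4 turned sign in WT, and in the lower row hippocampal Grm4 and Grm8 scatter within the mutants, all DM points of Grik3 lie below all WT points, and so do all 5c-KO points of Grm2.

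The region pattern recurred in the mutant mice. In 2a-HET 26 members were called (18 higher in hippocampus and 8 in amygdala) against 30.2% of all genes tested (15.1% and 15.0%), in 5c-KO 28 (19 and 9) against 23.7% (11.8% and 11.9%), and in DM 28 (19 and 9) against 27.6% (13.6% higher in hippocampus and 14.0% in amygdala). With the mouse as a block the numbers were 28, 27 and 29: Dlgap3 and Grm7 were gained in 2a-HET, Grin3b was lost in 5c-KO and Dlgap3 was gained in DM. Without WT replicate 1 amygdala and 5c-KO replicate 1 hippocampus, 26, 28, 28 and 29 members were called in WT, 2a-HET, 5c-KO and DM. Without the mouse 2a-HET replicate 4 the 2a-HET number was 25, and without DM replicate 1 the DM number was 26. With ERCC scaling the numbers were 11, 20 and 8 in 2a-HET, 5c-KO and DM, where 6.7%, 24.3% and 5.27% of all genes were called, with the median of all genes at 0.51, 0.89 and 0.42, and Dlg1 turned sign in 2a-HET and Dlg1, Gria4 and Grin3a in 5c-KO.

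A core of 24 genes passed the test in all 4 genotypes, 16 higher in hippocampus and 8 higher in amygdala, against 14.7% of all genes tested (7.36% and 7.37%). Grik2, Grid1, Grm3, Grm7 and Dlg2 passed in none, Grin2c, Grin3b, Grik5, Grm5 and Dlgap3 passed in 1 to 3, and 32 of the 34 had the same sign in all 4. The log2 fold change ranged over genotypes from 1.97 to 2.42 for Grin2a, from 1.38 to 1.68 for Grik4, from 1.03 to 1.38 for Gria1 and from 0.95 to 1.36 for Dlgap1. It ranged from -1.59 to -1.02 for Grin2d, from -2.16 to -1.38 for Grm4, from -1.44 to -0.57 for Grik3 and from -1.07 to -0.77 for Grik1.

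Across all 16 mice, 7 of the 34 genes (Gria1, Gria2, Grin2a, Grin2d, Grik4, Dlgap1 and Shank2) had no overlap between the 16 amygdala and the 16 hippocampal libraries, against 4.48% of all genes. Grin2a had a lowest, median and highest count of 1174, 2002 and 2999.9 in amygdala and 3894, 9257 and 15396 in hippocampus. Grin2d had 1157, 1961 and 2349 in amygdala and 586, 829.8 and 1025 in hippocampus. On the size-factor scale these subunits of one receptor separated the regions without overlap and in opposite directions. With ERCC scaling the Grin2d difference kept its sign but shrank to -0.29 in WT, -1.09 in 2a-HET, -0.19 in 5c-KO and -0.80 in DM. Gria1 ranged from 8040.3 to 11294 in amygdala and from 13556 to 27414 in hippocampus, and Grik4 from 291 to 558 and from 964 to 1983. The genes higher in amygdala were lower in the hippocampus of each of the 16 mice for Gria4, Grin2d, Grin3a, Grik1, Grik3, Grm8 and Dlg1, and in all but 1 for Grm4, on the scale of the size factors. Gria4, Grin3a, Grik1, Grik3, Grm8 and Dlg1 are those that turned sign in WT on the ERCC scale.

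Whether the regions differed more in a mutant than in WT was tested in the fit of all 32 libraries. None of the 34 was called for 2a-HET, 5c-KO or DM, where 0.0%, 0.0125% and 0.0125% of all 32039 genes were, and edgeR also called none. At an unadjusted p under 0.05 there were 1, 0 and 2, against 1.78%, 1.99% and 2.02% of all genes. The members with the smallest p were Grik3 in DM, whose log2 region difference was -0.87 ± 0.319 relative to that of WT, and Grin2d in 2a-HET (-0.57 ± 0.218), both at an adjusted p = 1.

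The makeup of each receptor family followed from these differences. Shares were computed from TPM within a family, so they do not depend on the scaling between libraries, and they describe the same values as the tests above. Among AMPA subunits, Gria1 took 42.7% in amygdala (mean of 16 libraries, range 36.5 to 48.7) and 49.9% in hippocampus (41.8 to 57.6). Gria4 took 10.7% (8.56 to 11.9) and 3.29% (1.95 to 5.90), with no overlap between regions. Among NMDA subunits Grin1 kept about the same place, at 69.9% and 69.8%, whereas Grin2a went from 3.15% (1.86 to 4.27) to 10.2% (5.95 to 14.1) and Grin2d from 7.40% (4.11 to 9.03) to 2.27% (1.26 to 3.64). The NMDA subunit genes other than Grin1 thus changed places: Grin2c and Grin2d led in amygdala (8.76% and 7.40%), and Grin2a and Grin2b led in hippocampus (10.2% and 8.86%). The order depends on the lengths used: with the length of all annotated exons, Grin2b passed Grin2d in WT amygdala (10.2% and 9.59%) and Grin2a in WT hippocampus (14.3% and 13.1%). Grik5 made up most of the kainate total in both regions (74.1% and 77.3%), while Grik4 went from 4.16% (1.97 to 4.85) to 9.84% (7.31 to 13.5) and Grik3 from 9.96% (4.45 to 11.6) to 4.24% (2.10 to 7.76). Among the 6 metabotropic receptors, Grm4 took 18.2% in amygdala and 4.78% in hippocampus, and Grm5, the largest, took 34.7% and 44.8%.

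**Figure D3:**
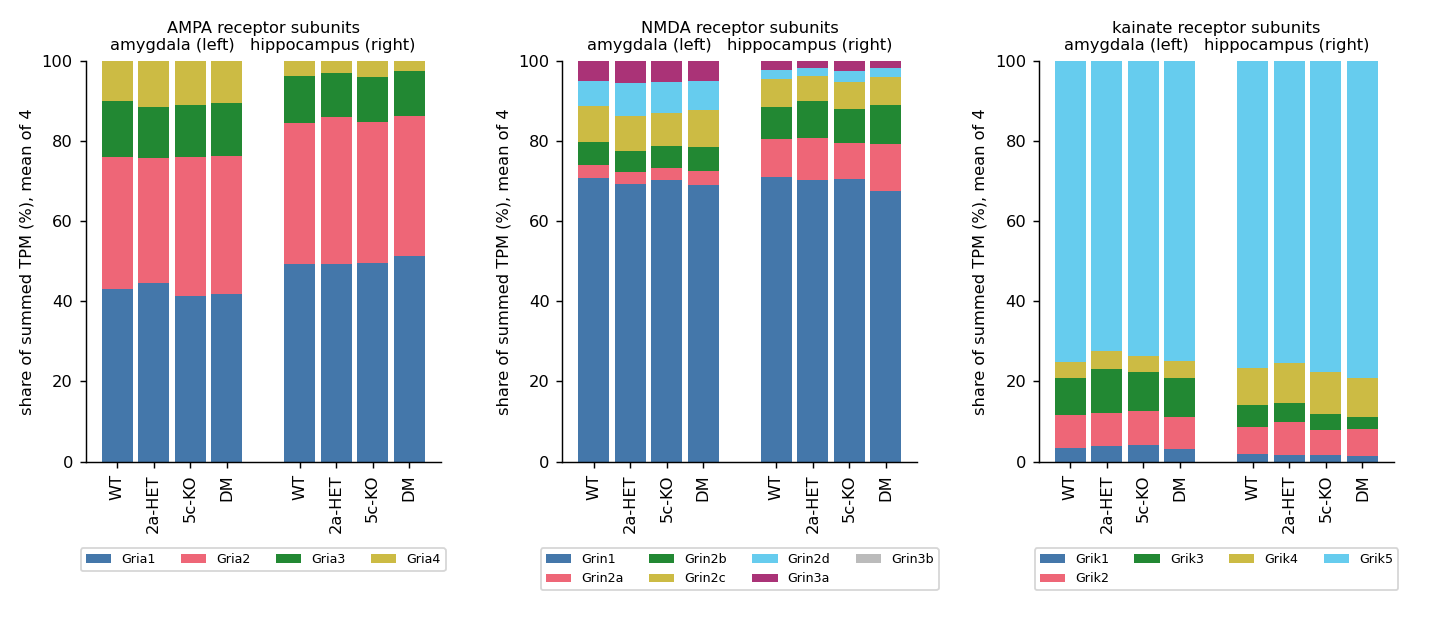
Share of the summed TPM of AMPA, NMDA and kainate receptor subunits (y axis, percent, mean of 4 libraries) taken by each subunit, by genotype (x axis) in amygdala (left bars) and hippocampus (right bars). Grin2a and Grik4 take larger shares in hippocampus and Gria4, Grin2d and Grik3 larger ones in amygdala, alike in the 4 genotypes.

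The ratio of Grin2a to Grin2b, which shifts with synapse maturation, was 0.569 ± 0.0610 in the 16 amygdala libraries (SD, range 0.452 to 0.683) and 1.15 ± 0.123 in the 16 hippocampal ones (0.965 to 1.35). The ranges did not overlap. By genotype the mean ratio in amygdala was 0.580 in WT and in 2a-HET, 0.531 in 5c-KO and 0.586 in DM, and in hippocampus 1.18, 1.18, 1.04 and 1.21. The ratio of Gria1 to Gria2 was 1.3 (0.944 to 1.67) and 1.43 (1.10 to 1.96), and that of Dlg4 to Dlg3 was 9.39 (8.23 to 10.8) and 8.08 (6.61 to 9.01), both with overlap between regions. A ratio between genes depends on the length given to each: with the length of all annotated exons in place of transcript lengths, the WT means of Grin2a to Grin2b became 0.453 and 0.923 and those of Gria1 to Gria2 became 3.68 and 4.09.

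The transcript tables showed a further region difference that gene counts hide. AMPA subunit genes carry a pair of mutually exclusive exons, flip and flop, which encode the stretch before the last membrane segment and set how fast the channel desensitises. The Gria1 exons are shown because their use differed between regions, and this gene and Dlgap4 were picked after the values of all members were seen, so no test is given. Capitals mark the 36 of 115 positions at which they differ, and the sequences were read from GENCODE M21 transcripts of the mm10 build, on the plus strand at chr11:57309769-57309883 (flop) and chr11:57310608-57310722 (flip).
Gria1 flop: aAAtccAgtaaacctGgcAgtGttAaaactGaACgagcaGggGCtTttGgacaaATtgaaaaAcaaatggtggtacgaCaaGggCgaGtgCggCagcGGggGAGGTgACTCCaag
Gria1 flip: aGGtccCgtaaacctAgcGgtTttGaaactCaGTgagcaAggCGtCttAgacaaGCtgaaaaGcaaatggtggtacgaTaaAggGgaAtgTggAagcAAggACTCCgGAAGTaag

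Of the Gria1 counts assigned to transcripts with one of these exons, scaled by transcript length, flop took 67.2%, 57.0%, 54.5% and 56.3% in the amygdala of WT replicates 1 to 4 and 73.4%, 71.2%, 68.5% and 70.4% in their hippocampus. It was higher in the hippocampus of 16 of 16 mice, by 12.1 percentage points on average (SD 3.29, range 6.17 to 17.3). Over all genotypes the share was 57.3% ± 3.49 in amygdala (52.8 to 67.2) and 69.4% ± 3.27 in hippocampus (62.9 to 73.4). The sole amygdala library within the hippocampal range was WT replicate 1, which stood apart in its markers. The flop share of Gria3 was higher in the hippocampus of 15 of 16 mice (mean 16.7% and 22.3%), that of Gria4 in 12 and that of Gria2 in 4. These shares rest on the authors' assignment of reads shared between transcripts, whose error is not known here.

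Dlgap4, a scaffold that binds DLG proteins, used a pair of alternative exons differently in the regions. Both lie on chromosome 2, an exon of 80 bases at 156748023 to 156748102 (coding in Dlgap4-205) and an exon of 89 bases at 156748332 to 156748420 (coding in Dlgap4-212 and untranslated in some other transcripts). Transcripts with the longer exon took 17.0%, 37.5%, 28.8% and 25.3% in the amygdala of WT replicates 1 to 4 and 13.5%, 13.1%, 13.1% and 17.2% in their hippocampus. The share was lower in the hippocampus of 16 of 16 mice, by 17.2 percentage points on average (SD 5.54), and averaged 32% (17.0 to 37.5) and 14.8% (12.8 to 19.6). The lowest amygdala value was again that of WT replicate 1. For 30 of the 34 genes the leading transcript was the same in both regions, and Gria1, Grin3b, Dlg3, Dlgap2 and Dlgap4 had a transcript whose share moved by over 10 percentage points. The Grin3b shift rested on few counts, with a median of 16.6 in amygdala and 6.39 in hippocampus.

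**Figure D4:**
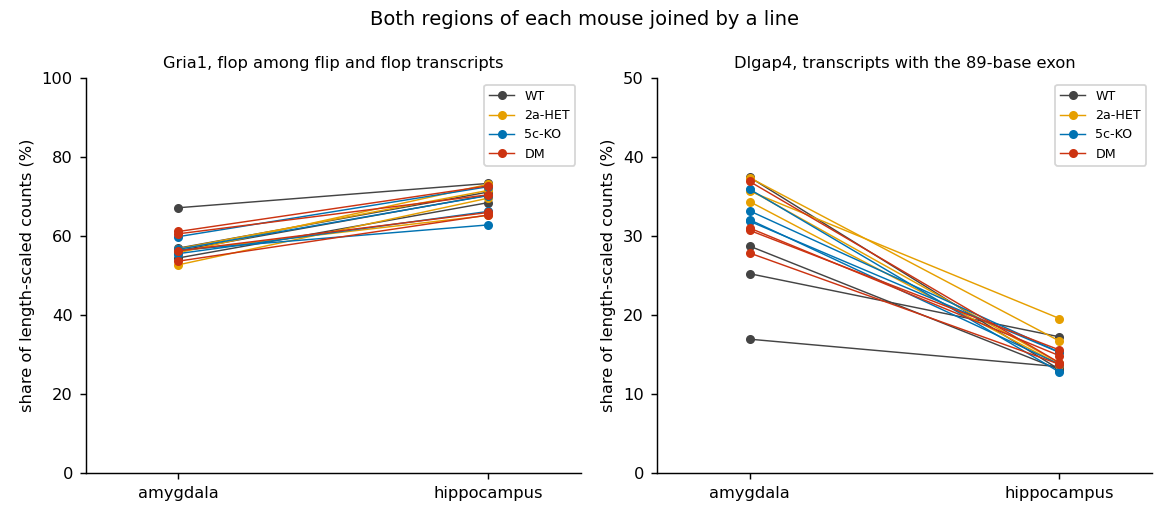
Share (y axis, percent of length-scaled transcript counts) of Gria1 flop transcripts (left) and of Dlgap4 transcripts with the 89-base exon (right) in amygdala and hippocampus (x axis), with a line for each of the 16 mice coloured by genotype. Each Gria1 line goes up and each Dlgap4 line goes down, with WT replicate 1 nearest to level in both.

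Against this region pattern, the mutations moved none of the 34 genes past the threshold. In the amygdala 0 of 34 were called for 2a-HET, 5c-KO and DM against WT, where 0.00988%, 0.751% and 0.966% of all genes tested were. In the hippocampus 0 of 34 were called in each, where 0.0%, 1.01% and 0.875% of all genes were. A count of 0 of 34 is near these background shares and does not set the genes apart. At an unadjusted p under 0.05 there were 4, 2 and 2 members in amygdala (3.05%, 3.84% and 4.86% of all genes) and 3, 2 and 2 in hippocampus (2.4%, 5.55% and 5.33%), and edgeR also called none. At the relaxed threshold that the study used for 2a-HET, an unadjusted p under 0.005, no member passed in either region, where 0.287% and 0.251% of all genes did. Leaving out single libraries gave 0 to 4 members at this threshold in amygdala (4 without WT replicate 2) and 0 to 1 in hippocampus (Grin2d without 2a-HET replicate 3).

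Most estimates were small, but not all were bounded closely. Of the 204 estimates in these 6 comparisons, 196 were under 0.5 and 150 under 0.2 on the log2 scale, and 15 had an unadjusted p under 0.05 (7.35%, against 4.17% of all estimates tested). The 95% confidence interval lay within ±0.5 for 24, 22 and 28 of 34 members in the amygdala of 2a-HET, 5c-KO and DM mice and for 18, 22 and 17 in their hippocampus. Grik3, Grin3b, Grm2, Grm4 and Grm8 had an estimate past 0.5, and the AMPA subunits, Grin1 and all 11 scaffolds had none. In amygdala the estimates were negative for 27, 26 and 25 of the 34 in 2a-HET, 5c-KO and DM, with medians of -0.12, -0.08 and -0.07 against -0.0017, -0.013 and -0.014 over all genes. These comparisons share their 4 WT libraries, among them replicate 1, whose excitatory marker sum was the highest. The 6 excitatory markers had median log2 fold changes of -0.34, -0.47 and -0.30 in the same comparisons, with 0 called, and their part in the members' medians was not tested. Sums of 6 oligodendrocyte markers in amygdala spanned 53154 to 128243 in WT, 116095 to 151558 in 2a-HET, 72506 to 125434 in 5c-KO and 85537 to 135324 in DM. The part of these markers was not tested either. In DM amygdala the choroid plexus markers Ttr, Kl and Kcnj13 were called higher than in WT, with sums of 40646 and 7533 in replicates 1 and 3, and without DM replicate 1 the count of members called stayed at 0. In hippocampus 17, 24 and 12 were negative and the medians were -0.01, -0.07 and 0.08, against 0, -0.00079 and 0.0015 over all genes. The 5c-KO group holds replicate 1, whose excitatory marker sum was the lowest of the region (138323). The part of that library in the 5c-KO median was not tested.

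**Figure D5:**
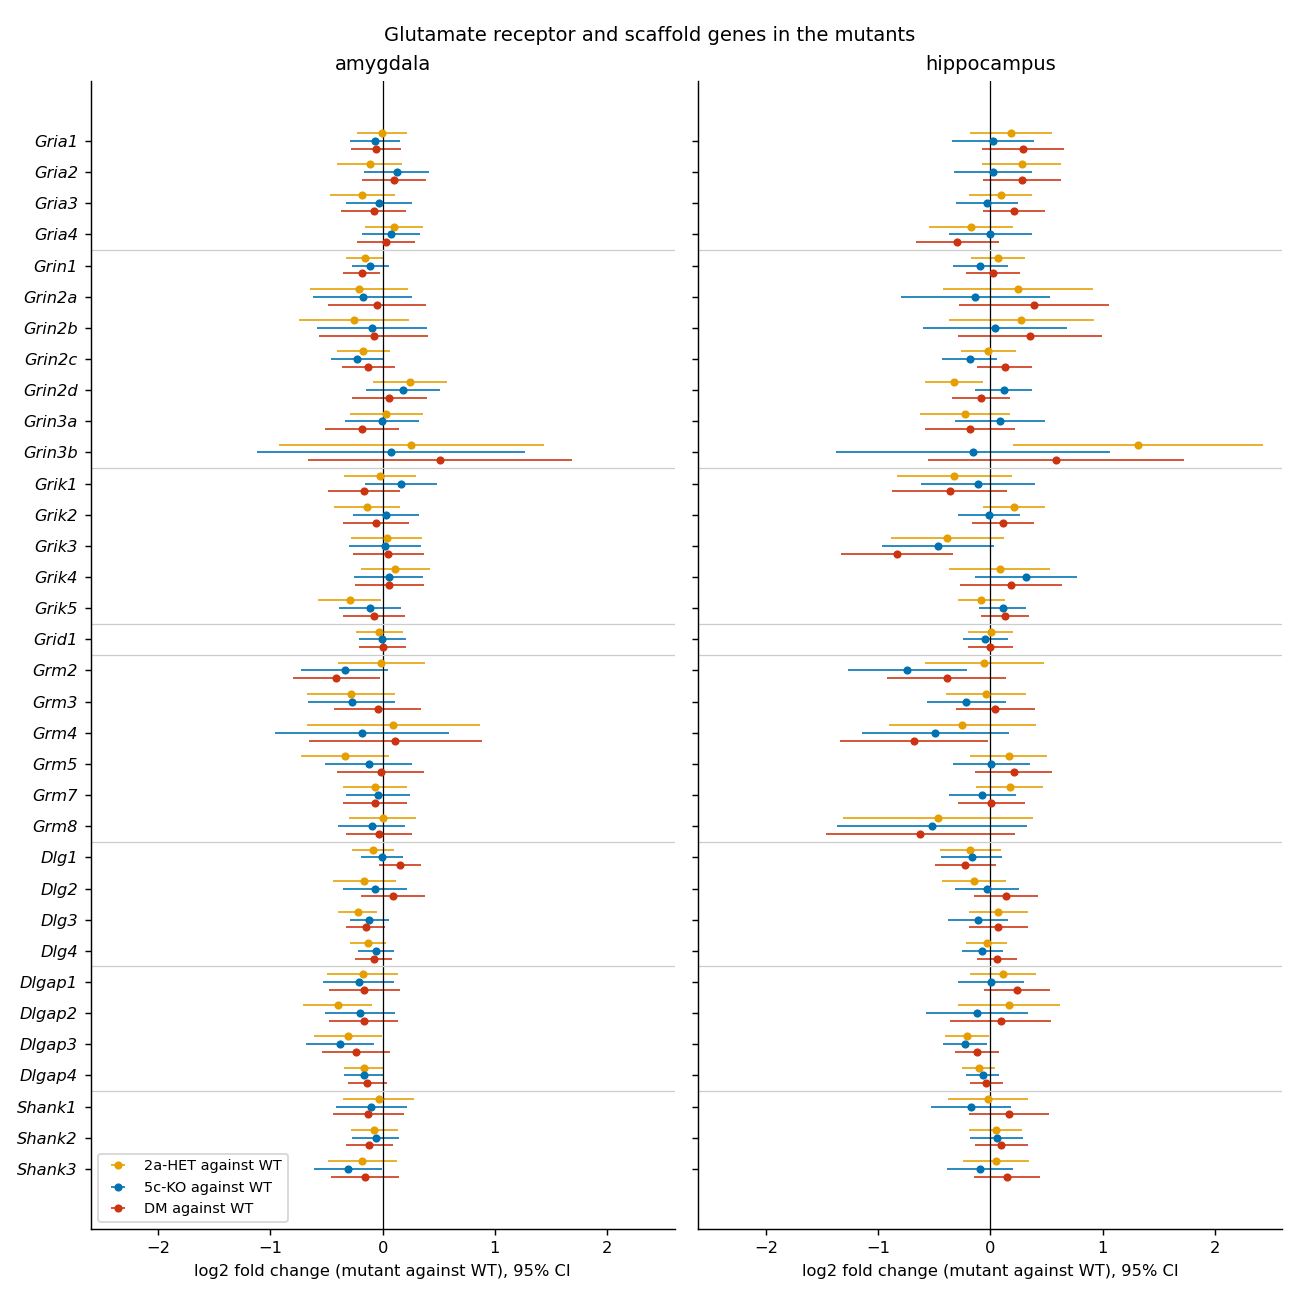
Log2 fold change of each mutant against WT (x axis) with its 95% confidence interval for each of the 34 genes (y axis, grouped by family) in amygdala (left) and hippocampus (right), 4 mice per genotype. Most points lie within 0.2 of 0, and hippocampal Grik3 in DM (-0.83) and Grm2 in 5c-KO (-0.74) lie farthest to the left, neither past the adjusted threshold.

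Grik3 in DM hippocampus came nearest to the threshold. This kainate subunit of low glutamate affinity (chromosome 4, 125490700 to 125714173, plus strand) had 1233, 2032, 1624 and 2118 counts in the hippocampus of WT replicates 1 to 4 and 884, 1064, 1100.0 and 897 in DM. Every DM value was under every WT value, a log2 fold change of -0.83 ± 0.255 (95% CI -1.33 to -0.33, adjusted p = 0.118). The single mutants stood between, at 1205, 2045, 934 and 1181 in 2a-HET (-0.38 ± 0.255, adjusted p = 1) and 1829, 782, 1016 and 1450 in 5c-KO (-0.47, adjusted p = 0.670), and both overlapped WT and DM. The 5c-KO value rested on single libraries, at -0.29 without 5c-KO replicate 2 and -0.69 without 5c-KO replicate 1. Without WT replicate 1 the DM difference was -0.97 and passed (adjusted p = 0.0429). The lowest Grik3 counts of 2a-HET (replicates 3 and 4) and of 5c-KO (replicates 2 and 3) were in libraries also low in Grm4 and Grm8. Summed inhibitory markers in hippocampus spanned 13230 to 15185 in WT, 9809 to 15206 in 2a-HET, 12118 to 16787 in 5c-KO and 9184 to 13253 in DM. Their part in the Grik3 values was not tested. In amygdala the 3 mutant estimates were 0.04, 0.02 and 0.05, with group means from 2601 to 2681.

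Grm2 had the smallest p in 5c-KO hippocampus. Its counts were 2174, 2014, 1637 and 1785 in WT, 2290.2, 1725, 879.7 and 2420 in 2a-HET, 791, 1429, 750.3 and 1584 in 5c-KO, and 1764, 1199, 1566 and 1286 in DM. All 4 of 5c-KO were under all 4 of WT (-0.74 ± 0.270, 95% CI -1.27 to -0.21, adjusted p = 0.274), as a low 2a-HET library also was. The lowest values were those of 5c-KO replicates 3 and 1, the latter a library that stood apart. Leaving out single libraries moved the difference from -0.94 without 5c-KO replicate 4, where it passed (adjusted p = 0.0824), to -0.60 without 5c-KO replicate 1 and -0.58 without 5c-KO replicate 3 (adjusted p = 0.759 and 0.715). The DM estimate was -0.39 in hippocampus, and in amygdala the estimates were -0.01, -0.34 and -0.41 in 2a-HET, 5c-KO and DM (adjusted p = 0.691 for DM, where Grm2 was called without WT replicate 4). A gene on the opposite strand, Gm28111, overlaps exons of Grm2, and the strand setting of the counting is not given in the sources used here.

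In the other 4 mutant comparisons the smallest p-values belonged to different genes. In 2a-HET amygdala it was Dlgap2, with 742, 796, 764 and 826 counts against 916, 862, 1085 and 1264 in WT (-0.40 ± 0.157, adjusted p = 1). In DM amygdala it was Grin1, with 12744, 14399, 10916 and 13123 against 16088.5, 13996, 14325 and 14001 (-0.19 ± 0.0839, adjusted p = 0.609). The Dlgap2 groups did not overlap, the Grin1 groups did, and the highest Grin1 value in WT was that of replicate 1. The Grin1 difference was -0.12 without DM replicate 3. In 2a-HET hippocampus it was Grin2d, with 674, 673, 796 and 586 against 904, 774, 746 and 995 (-0.32 ± 0.132, adjusted p = 1), and these groups overlapped.

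Dlgap3, a scaffold gene whose loss in mice causes compulsive grooming, had the smallest p in 5c-KO amygdala. Its counts there were 15187, 12405, 11138 and 15224 against 21487, 12593, 18063 and 18039 in WT (-0.38 ± 0.153, adjusted p = 0.556), and WT replicate 2 lay within the 5c-KO values. The highest WT value was that of replicate 1, which stood apart in its markers. Striatal marker sums were 56573, 27777, 9070 and 52452 in 5c-KO, where replicate 3 was lowest in both, and 15280, 30354, 37664 and 58727 in WT, where the library highest in Dlgap3 had the lowest sum. Their part in the difference was not tested. The difference was -0.51 without WT replicate 2, where it passed (adjusted p = 0.0227), and -0.26 without WT replicate 1 (adjusted p = 0.578). Looked at after its values were seen, its estimates were below 0 in all 6 comparisons, at -0.31, -0.38 and -0.24 in amygdala and -0.21, -0.23 and -0.12 in hippocampus for 2a-HET, 5c-KO and DM, with an unadjusted p under 0.05 in 4. With all libraries none passed the adjustment, and each set of 3 shares its WT libraries.

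The presynaptic receptors Grm4 and Grm8, also picked after their values were seen, scattered within the mutant groups of the hippocampus. Grm4 had 513, 539, 501 and 602 counts in WT, 577, 725, 269 and 237 in 2a-HET, 578, 254, 250.1 and 453 in 5c-KO, and 296, 268, 522 and 259 in DM (DM against WT -0.68 ± 0.335, adjusted p = 0.612). Grm8 had 101, 163, 115 and 197 in WT, 121, 193, 53.0 and 49.7 in 2a-HET, 159, 48.7, 58.2 and 136 in 5c-KO, and 113, 62.3, 125 and 74.6 in DM (adjusted p = 0.816 for DM). Replicates 3 and 4 of 2a-HET and 2 and 3 of 5c-KO were low in both genes. The summed inhibitory markers of the same libraries spanned 13230 to 15185 in WT, 9809 to 15206 in 2a-HET, 12118 to 16787 in 5c-KO and 9184 to 13253 in DM. The thalamic sums were 4786, 3127, 1593 and 2187 in 2a-HET replicates 1 to 4, 1632, 2139, 1756 and 2201 in 5c-KO, and 2307, 2410.4, 3878 and 2142 in DM. They were lower in the low pair of 2a-HET libraries and highest in the DM library with the most Grm4, but did not follow the order of 5c-KO. In WT the thalamic sums spanned 1542 to 2352, a range that holds those of the low 2a-HET pair, while WT Grm4 was at 501 to 602. The part of either marker list in these values was not tested. Grin3b, at 13.3 against 5.32 counts in 2a-HET hippocampus (1.31 ± 0.568, adjusted p = 1), had too few counts to bound its difference.

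DM mice were set against either single mutant, and whether the DM effect departed from the single effects added together was tested. Against 5c-KO none of the 34 was called in amygdala or hippocampus, where 0.00329% and 0.0067% of all genes were. Against 2a-HET none was called, where 0.845% and 0.603% were. For the departure from additivity none was called, where 0.00329% and 0.0% of all genes were, and edgeR called no member in any of these. At an unadjusted p under 0.05 there were 1, 2 and 1 members in amygdala and 1, 1 and 1 in hippocampus for the 3 tests, where 2.29%, 4.48% and 2.82% and then 4.53%, 3.49% and 1.91% of all genes passed, so these counts are near the background. They were Grik1 (-0.33, adjusted p = 1) and Grin2c (0.31 ± 0.124, adjusted p = 0.959) in DM against 5c-KO amygdala and hippocampus, and, in DM against 2a-HET, Dlg1 (0.24 ± 0.0955, adjusted p = 0.440) and Grm2 (-0.40, adjusted p = 0.729) in amygdala and Dlg2 in hippocampus (0.28 ± 0.144, adjusted p = 0.985). In amygdala and hippocampus Dlgap3 had estimates for this departure of 0.45 ± 0.216 and 0.32 ± 0.142, and neither passed the adjustment.

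Replicates of a genotype spread somewhat more in these genes than in the transcriptome. Over the 33 members with a mean above 50 counts, the median SD within genotype on the log2 scale was 0.224 in amygdala and 0.231 in hippocampus, against 0.194 and 0.186 over 13366 genes. Grm4 was among the most variable in both (0.602 and 0.556), and Grm8 was the most variable in hippocampus (0.711). The members are also long genes: their median span was 231.6 kb, against 25.2 kb over 13358 genes with such a mean, and 22 of 34 (64.7%, against 16%) exceeded 100 kb.

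Genes that act with the receptors were counted in the same way. Of 30 synapse partners (auxiliary subunits, adaptors, kinases and pentraxins), 15 were higher in hippocampus and 3 higher in amygdala in WT, with a median of 0.45, where 10.1% and 11.5% of all genes were. In 2a-HET the counts were 21 and 3 (all genes 15.1% and 15.0%), in 5c-KO 19 and 5 (11.8% and 11.9%) and in DM 20 and 4 (13.6% and 14.0%). The smallest adjusted p-values were those of Homer3, a postsynaptic adaptor of group I receptors (1362 against 237 counts, 2.52 ± 0.236, adjusted p = 6.72e-24), and Shisa6, an AMPA receptor auxiliary subunit (2996 against 446, 2.75 ± 0.267, adjusted p = 3.37e-22). Nptx1, a pentraxin that clusters AMPA receptors (19175 against 5233, 1.87), and Camk2a, the kinase of potentiation (138045 against 65127, 1.08), followed. Higher in amygdala, though each with the opposite sign on the ERCC scale, were Grip2, an AMPA receptor adaptor (793 against 415, -0.93), Gsg1l, an auxiliary subunit (2061 against 1084, -0.93), and Shisa9 (1666 against 1308, -0.35, adjusted p = 0.0763).

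Of 11 genes for glutamate transport and metabolism, 4 were higher in hippocampus and 3 higher in amygdala in each genotype, where 21.6%, 30.2%, 23.7% and 27.6% of all genes passed in WT, 2a-HET, 5c-KO and DM. The vesicular transporters were opposed in WT: Slc17a7, typical of cortical and hippocampal neurons, averaged 53487 in hippocampus and 22289 in amygdala (1.26, adjusted p = 2.09e-05), and Slc17a6, typical of thalamus and other subcortical neurons, averaged 505 and 2231 (-2.14, adjusted p = 0.00924). The uptake carriers Slc1a1 (0.60) and Slc1a2 (0.45) were also higher in hippocampus, and Glud1 (-0.33) and Slc38a1 (-0.48) in amygdala, the last pair with the opposite sign on the ERCC scale. Between genotypes, 1 gene of both lists together was called, in 1 comparison: Neto2, an auxiliary subunit of kainate receptors, was lower in 5c-KO than in WT hippocampus (642 ± 31.7 against 851 ± 150, -0.41 ± 0.116, adjusted p = 0.0627), where 1.01% of all genes were called. A single call does not set these lists apart from that background. Camk2a and Slc17a7 are also among the excitatory neuron markers and Slc17a6 is among the thalamic ones.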

How the data were processed

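RNA of 16 mice and 2 regions gave 32 libraries (Tri Reagent and RNeasy isolation, ERCC RNA added afterwards, oligo-dT priming, directional kit). Per the submitters' processing notes and the study's methods, uniquely mapped reads were aligned to mm10 with STAR 2.5.3a, duplicates were removed and genes were counted with featureCounts (Subread 1.5.0). The tables deposited by the authors are named expected counts, and 7.07% of gene values and 35% of transcript values were not whole, so reads shared between features may be split, and how is not given in the sources used here. Of 53715 genes, 53620 matched a GENCODE M21 symbol by identifier, the version being set aside (it was the same for 29 of the 34 members). Expected counts were rounded to whole numbers, and 92 ERCC sequences were kept out of the gene tests. No column of sample values went unmatched.

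Each region's 16 libraries were fitted together with DESeq2 1.42.0 (R 4.3.3, Wald test, Benjamini-Hochberg adjusted p under 0.1, no replicate block), and all 32 libraries for the region tests. Nothing in the labels says more of the replicates than that they are separate mice. Normalised counts come from the 32-library fit. Size factors of the regional fits deviated from it by at most 0.892%. TPM came from the transcript counts and annotated transcript lengths (134952 of 135181 transcripts). The alternatives were edgeR 4.0.16 (quasi-likelihood, TMM), TMM or ERCC size factors, a filter of 10 counts in 4 libraries, an adjusted p under 0.05, fits of 2 groups, the replicate or mouse as a block, and leaving out each mouse. Code was tested on simulated counts with known changes (DESeq2, adjusted p under 0.1), for 5c-KO against WT in amygdala and hippocampus and for the WT regions. Of changes of 0.5 in log2, 47.8%, 50.7% and 43.3% were recovered, and of changes of 1, 100%, 95.5% and 97%. False calls made up 22.2%, 22.3% and 18.8% of the calls, more than this threshold aims at. Confidence intervals cover 95% by the Wald statistic.

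The animal numbers in the labels pair both regions of 16 of 16 mice. A mouse's amygdala and hippocampus deviated together from their groups (median r = 0.169 over genes, -0.088 to 0.454, over 0.1 in 14 of 16, against -0.0102 for regions of different mice), so the block is given beside region counts where it changes a call.

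The members and the other gene lists were chosen with earlier results of these data known. Library values are given for the member of smallest p in each mutant comparison, for up to 4 members per direction with the smallest adjusted p between WT regions, and for those of the ratios. Up to 4 genes per direction are named of other lists. Of the transport and metabolism list, 1 gene is not reported here. Grm4, Grm8, Dlgap3 over all comparisons, and the transcript results were chosen after their values were seen. Exon sequences were cut from the GENCODE M21 transcripts (mm10).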

Additional observations from a re-analysis of the deposited data

Results flagged for a closer look

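In 29 of 344 groups of 4 libraries, 1 library stood far from the other 3 (Dixon's 95% limit for the gap relative to the range). About 1 group in 20 passes this limit by chance.

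The library with the most such values was 5c-KO replicate 1 hippocampus, with 5, in each of which it was the lowest: Gria2 (8683 counts, the others 13208 to 13993), Grik2 (939), Dlgap3 (14297), Shank1 (25022, the others 36794 to 39148) and Shank2 (4760, the others 6237 to 6351). This library also had the highest choroid plexus and striatal marker sums of the hippocampus, and their part in these values was not tested. The amygdala of the same mouse was lowest in Gria2 (5299 counts, the others 7822 to 8125) and highest in the ratio of Dlg4 to Dlg3 (10.7).

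WT replicate 1 amygdala was highest in Grin1 (16088.5 counts), in Grik5 (12542, the others 7288 to 7994) and in the ratio of Gria1 to Gria2 (1.45). It is the library with the highest excitatory marker sum of its region. WT replicate 2 hippocampus was highest in Grin2a (14005 counts, the others 6487 to 7731), Grik2 (1346) and Dlgap1 (17413).

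Among the other counts, DM replicate 1 amygdala was low in Gria3 (2344), 2a-HET replicate 3 amygdala was low in Grik3 (2368) and high in Grik5 (7556), and 2a-HET replicate 1 amygdala was low in Dlgap4 (6481). In hippocampus, 5c-KO replicate 3 was high in Grin3b (8.17), DM replicate 3 was high in Grm4 (522, the others 259 to 296), and DM replicate 2 was high in Shank3 (18454).

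For transcript shares, Gria2 flop was low in 2a-HET replicate 3 amygdala (13.8%) and in WT replicate 4 hippocampus (9.96%, the others 23.8% to 25.5%). Gria4 flop was high in WT replicate 4 hippocampus (83.9%) and low in 2a-HET replicate 1 hippocampus (68.2%). The 89-base exon of Dlgap4 was high in WT replicate 4 hippocampus (17.2%). The share of Dlgap4-212 among Dlgap4-205 and Dlgap4-212 was high in 5c-KO replicate 3 amygdala (32%) and in 5c-KO replicate 4 hippocampus (0.529%). The ratio of Grin2a to Grin2b was low in 5c-KO replicate 2 amygdala (0.487), and that of Gria1 to Gria2 was high in DM replicate 1 hippocampus (1.96).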

How the results depend on the processing

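The region calls kept their counts within 1.5 times under edgeR (24, 26, 28 and 28 of 34 in WT, 2a-HET, 5c-KO and DM), TMM size factors (25, 26, 28 and 28) and the mouse block. Leaving out a mouse gave 19 to 24, 25 to 26, 24 to 26 and 25 to 27, and WT fell to 19 without replicate 2 and 20 without replicate 3. ERCC scaling gave 13 in WT, 11 in 2a-HET and 8 in DM. It turned the WT fold change of Gria4 to 0.34, Grin3a to 0.081, Grik1 to 0.15, Grik3 to 0.33, Grm8 to 0.20 and Dlg1 to 0.62. All had the sign of the size-factor scale again after the median of all genes was subtracted (added after seeing the data). That step brings the values back near the size-factor scale, so it cannot decide between the scales.

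The counts of 0 in the mutants were not always 0 when a library was left out. In amygdala, 5c-KO against WT ranged from 0 to 2 (Dlgap3 and Grin2c without WT replicate 2) and DM against WT from 0 to 1 (Grm2 without WT replicate 4). In hippocampus, 5c-KO ranged from 0 to 1 (Grm2 without 5c-KO replicate 4) and DM from 0 to 1 (Grik3 without WT replicate 1). All other genotype comparisons and region differences ranged from 0 to 0. At the relaxed threshold for 2a-HET, leave-one-out counts were 0 to 4 in amygdala (4 without WT replicate 2, and Grm5 without WT replicate 1) and 0 to 1 in hippocampus (Grin2d without 2a-HET replicate 3). Without WT replicate 1 amygdala and 5c-KO replicate 1 hippocampus the amygdala count was 1 (Grm5). With only the 2 groups compared in the fit, 1 passed this threshold in 2a-HET amygdala (Dlgap2), 1 was called in DM against 2a-HET amygdala (Grm2) and 2 in DM against WT hippocampus (Grik3 and Grm4). The cause was not tested.

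The labels do not say what libraries of the same replicate number share. Grin2b, picked after its values were seen, was lowest in replicate 1 of WT, 2a-HET, 5c-KO and DM in both regions. Its counts there were 4100, 4186, 3796 and 4648 in amygdala and 8444, 8716, 6350 and 11658 in hippocampus. The cause was not tested. Same-numbered libraries of other genotypes deviated together at a median r of 0.0691 (-0.415 to 0.466, over 0.1 in 19 of 48 pairs, against a median of -0.0316 for other numbers), and 13 of 32 libraries correlated best with their own number. With the replicate block 1 member was called (Dlg2, DM against 2a-HET, hippocampus), and the block changed no other call between genotypes.

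With the length of all annotated exons in place of transcript lengths, 29 of the subunit shares and ratios in WT moved by more than their SD between mice and 9 did not. Of the counts under an alternative, 308 stayed alike, 12 grew and 3 shrank past 1.5 times, and of the named fold changes 411 kept their direction and their side of the threshold, 26 lost the call, 5 gained it and 6 turned. With 4 mice per group, intervals of 12 to 17 of the 34 members in hippocampus reached past 0.5 on the log2 scale, so a difference of that size could go undetected in them. Transcript shares rest on how shared reads were assigned, and ratios between genes on the lengths used.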
